A study of Mus musculus with 42 samples.

Results

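The early response to bacterial lipopolysaccharide (LPS) of macrophages that lack tristetraprolin (TTP) was described from the mRNA levels of ΔM bone marrow-derived macrophages (BMDMs) before LPS and after 3 h of it. A gene was included when its level, in FPKM (fragments scaled to transcript length and library size), was at least 1 in ΔM cells at 0 h or at 3 h. This held for 11680 of 21951 genes. The response is the log2 ratio of FPKM + 1 at 3 h over FPKM + 1 at 0 h, so a value of 1 is a 2-fold increase on that scale, and it understates the change of genes of low level.

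ΔM cells, labelled TTP-/- by the submitters, came from C57BL/6 mice in which LysM-Cre, active in major myeloid cell types, deletes Zfp36, the gene of TTP. WT cells came from littermates. Bone marrow of young adult mice was grown into macrophages with CSF-1 from L929 cells, and the cells were left untreated (0 h) or received 10 ng/ml LPS for 3 h. The 3 h libraries are the 0 min samples of an actinomycin D series, in which the medium was exchanged. The study holds 42 libraries in 14 groups of 3. The deposited levels are 1 pooled value per group. The authors' own tests between genotypes, which the tables also hold, were not used, so every difference here is between pooled values and has no replicate check, test or interval, and how deeply each library was sequenced is unknown.

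LPS is sensed by Toll-like receptor 4, which signals through one adaptor to NF-κB and MAP kinases and through another to IRF3. IRF3 and NF-κB together switch on interferon β (Ifnb1), and the secreted interferon drives interferon-stimulated genes through its receptor. TTP binds AU-rich elements in the 3′ UTR of mRNAs of cytokines and chemokines and brings in the deadenylation machinery. Its own gene is switched on by LPS in macrophages.

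The level of Zfp36 was low in the ΔM groups. Before LPS it stood at 5.98 FPKM, against 118 FPKM in WT cells, and at 3 h it stood at 16.3 against 1017 FPKM. The residual reads still gave a response of 1.31 in ΔM cells, against 3.10 in WT. Lyz2, the lysozyme gene into which LysM-Cre is inserted, stood at 4067 FPKM in ΔM cells before LPS, against 6936 FPKM in WT. Carrying Cre and lacking TTP cannot be told apart where WT littermates carry no Cre, which the sources used here do not state. The macrophage genes Cd68, Csf1r and Adgre1 stood at 4880, 417 and 203 FPKM in untreated ΔM cells. Markers of other cells were low: no marker of mast cells, dendritic cells or erythroid cells reached 1 FPKM in WT or ΔM at 0 or 3 h. The neutrophil markers summed, WT first, to 19.4 and 36.8 FPKM before LPS and to 4.23 and 3.59 FPKM at 3 h. Before LPS most of that sum was S100a8 and S100a9, while Elane, Mpo, Camp and Ltf stayed under 1 FPKM. The B cell markers summed to 93.9 and 29.2 FPKM before LPS, nearly all of it Ighm, with Cd79a, Ms4a1 and Pax5 under 1 FPKM. In bulk RNA, fewer cells of a type and less RNA per cell cannot be told apart.

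After 3 h of LPS, 867 genes (7.42% of those included) were at least 2-fold higher in ΔM cells, here called induced, and 1329 (11.4%) were at least 2-fold lower, here called reduced. Over the same genes WT cells had 858 induced (7.35%) and 1466 reduced (12.6%), and 736 genes were induced and 996 reduced in both. The median response over all genes was -0.35 in ΔM and -0.38 in WT cells, so the balance of increases to decreases depends on the scaling. When the groups were scaled to a common median ratio over 4356 well-expressed genes, the median response of ΔM cells was -0.09, 1113 genes were induced and 761 reduced, so that increases made up 59.4% of the calls in place of 39.5%. The strongest responses were fewer in ΔM than in WT cells: 122 against 159 genes reached a response of 3, and 32 against 47 reached 5.

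The 12 genes with the highest response in ΔM cells, among those of at least 10 FPKM at 3 h, were the chemokines Cxcl1, Cxcl10 and Ccl5, the cytokines Il27 and Ifnb1, the early activation antigen Cd69, the nitric oxide synthase Nos2, the prostaglandin synthase Ptgs2, the cytokine signalling inhibitors Socs1 and Socs3, and the interferon-induced Gbp2b and Rsad2. Cxcl1, which attracts neutrophils, went from 3.76 to 1589 FPKM (response 8.38). Il27, a subunit of interleukin 27, went from 1.29 to 607 FPKM (8.05), and Cxcl10, which attracts T cells, from 66.8 to 10915 FPKM (7.33). Of these 12 genes, 9 had a smaller response in ΔM than in WT cells. The same held for 52.8% of the 867 genes induced in ΔM and 45.3% of all genes. The exceptions among the 12 were Cxcl1, Ifnb1 and Cd69. For Cd69 the difference of 0.16 became -0.04 after the centring for GC content described further on.

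The lowest responses were taken among genes of at least 10 FPKM before LPS. The proto-oncogene Myc went from 97.9 to 2.06 FPKM, a response of -5.01 against -4.05 in WT. Mnt, which shares Myc's partner Max, went from 57.9 to 1.56 FPKM (-4.52). Dusp6, a phosphatase of ERK, went from 39.5 to 0.93 FPKM (-4.39). Further genes of this group were Cd300lb, Irf2bp2, Tmem86a, Lpar5, Cdca7, Osgin1, Lhfpl2 and 1700017B05Rik. The genes named here were also reduced in WT, at -3.96 to -5.12, and Cd300lb shares its symbol with another row of the table.

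**Figure D1:**
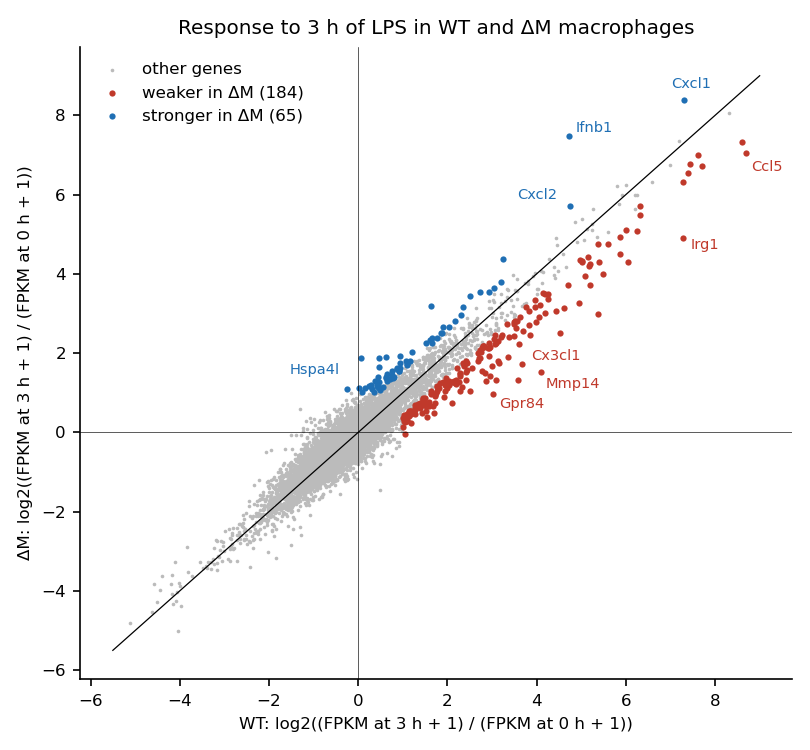
Response to 3 h of LPS, as log2 of the ratio of FPKM + 1, of each of the 11680 genes in WT (x axis) and ΔM (y axis) BMDMs, 1 pooled value per group. Red points are the 184 genes called weaker in ΔM, blue points the 65 called stronger, grey points the others, and the diagonal marks equal responses; Ifnb1, Cxcl1 and Cxcl2 lie above the diagonal and Mmp14, Irg1 and Ccl5 below it.

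The counts of induced genes by functional list are to be read beside the 7.42% of all genes. All 23 interferon-inducible GTPases and p200 genes were induced, as were 13 of 16 inflammatory cytokines, 15 of 20 chemokines, 12 of 14 NF-κB subunits and inhibitors, 12 of 15 genes of itaconate, nitric oxide and arginine metabolism, and 27 of 38 antiviral genes. The medians of these lists lay between 1.61 and 4.07, beside -0.35 over all genes. No gene of the lists for lysosomes, sterol synthesis, lipid efflux, DNA replication or mitosis was induced in ΔM cells. Counts of reduced genes are to be read beside 11.4% of all genes in ΔM and 12.6% in WT. Of 26 replication genes 9 were reduced in ΔM and 13 in WT, and the licensing factor Cdt1 went from 64.97 to 6.24 FPKM in ΔM. Sterol synthesis had 6 of 23 genes reduced, with 6 also in WT. Among those in ΔM was Dhcr7, which makes cholesterol from its last precursor (54.3 to 16.8 FPKM). Of 18 immediate early genes 3 were induced and 8 reduced in ΔM, against 3 and 5 in WT. Ier3, an early survival gene, had the highest response of them, from 44.4 to 335 FPKM (2.89, WT 2.43).

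The receptor itself stayed within 2-fold. Tlr4 stood at 38.7 FPKM before and 22.2 FPKM after LPS in ΔM cells, and its partner Ly96 at 6.88 and 8.04 FPKM. Cd14, the coreceptor that hands over LPS, went from 309 to 883 FPKM, and Tlr2, a receptor of lipoproteins, from 39.8 to 177 FPKM. Of the signalling genes, Map3k8, the kinase that activates MEK downstream of TLRs, had the highest response (3.97, WT 3.46), and Ticam1, the adaptor towards IRF3, went from 20.7 to 8.69 FPKM (-1.16, WT -0.58). Together 7 of the 19 genes of this list were induced, beside 7.42% of all genes, and 2 reduced, beside 11.4%, with a median of 0.41 in ΔM and 0.42 in WT cells.

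**Figure D2:**
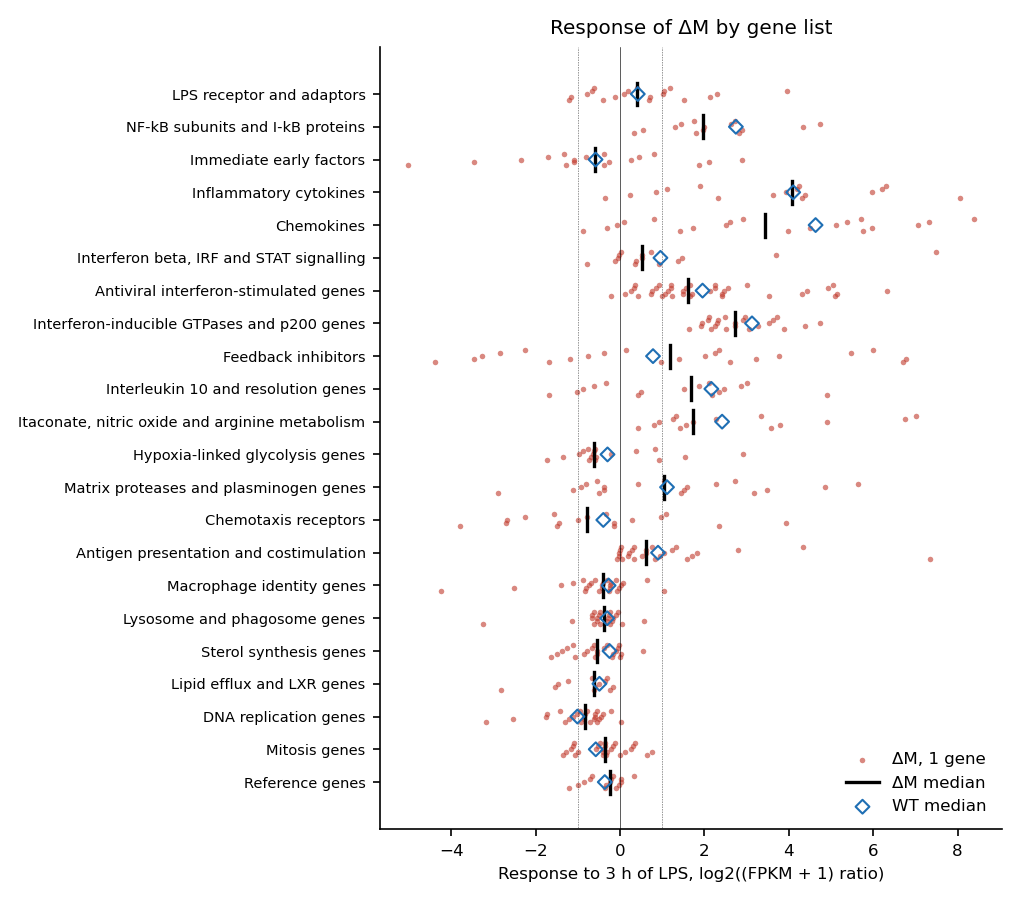
Response of ΔM BMDMs to 3 h of LPS (x axis, log2 of the ratio of FPKM + 1) for the genes of 22 functional lists (y axis). Each red point is 1 gene, the black bar is the ΔM median and the blue diamond the WT median of the list; dotted lines mark a 2-fold change. The ΔM median lies left of the WT diamond for NF-κB genes (1.97 against 2.75), chemokines (3.45 against 4.64) and GTPases (2.71 against 3.13), and right of it for replication (-0.83 against -1.01) and mitosis genes (-0.37 against -0.58).

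Before LPS, 107 of the included genes (0.916%) were at least 2-fold higher in ΔM than in WT cells, and 125 (1.07%) at least 2-fold lower. The raised genes were to a large part genes that LPS itself induces: 76 of the 107 were induced in WT cells, a share of 71.0% beside 7.35% of all genes. Since the level in untreated ΔM cells enters only the ΔM response, the WT response is a measure that the call did not share with ΔM. It does share the untreated WT level, which is the denominator of both, so low pooled WT values at 0 h would raise both together. The part of that shared value was not tested.

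Mmp14, a membrane-bound matrix metalloprotease, stood highest over WT before LPS, with 42.4 FPKM in ΔM and 2.37 FPKM in WT cells. LPS brought it to 124 FPKM in ΔM and 56.5 FPKM in WT cells, so untreated ΔM cells already held 75.1% of the WT level at 3 h. The secreted gelatinase Mmp9 was also raised, at 24.7 against 5.18 FPKM, but LPS did not induce it in either genotype (16.7 and 4.34 FPKM at 3 h). Saa3, an acute phase serum amyloid A protein, was at 112 FPKM in untreated ΔM and 13.2 FPKM in untreated WT cells and at 899 and 583 FPKM at 3 h. Among ligands of the monocyte receptor CCR2, Ccl12 was at 46.9 against 7.15 FPKM before and 274 against 185 FPKM after LPS. Ccl8, another monocyte chemokine, was at 24.7 against 1.86 FPKM before and 67.8 against 21.1 FPKM after LPS. Untreated ΔM cells thus held more Ccl8 mRNA than WT cells after 3 h of LPS.

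Plekhg2, a guanine nucleotide exchange factor, lies next to Zfp36 on chromosome 7 (28359603 to 28372681, with Zfp36 at 28376784 to 28379228, GRCm38.p6), with 4102 bases between them. It was at 77.0 FPKM in untreated ΔM and 7.11 FPKM in untreated WT cells, and at 269 against 16 FPKM at 3 h. It was the only raised gene among the stronger ones defined further on, and it stood at 932 against 26.5 FPKM at 6 h. Whether its level comes from the altered locus was not tested.

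Of the 22 functional lists, the antiviral interferon-stimulated genes held the most raised members. Of the 38 antiviral genes included, 18 were raised and no gene was lowered, with a median of 0.95 beside -0.04 over all genes. Among the 23 GTPases and p200 genes 9 were raised. Over all genes 0.916% were raised and 1.07% lowered. Zbp1, a sensor of Z-form nucleic acids, was at 123 FPKM in ΔM and 28.9 FPKM in WT cells before LPS. Irf7, the interferon regulatory factor that amplifies type I interferon, was at 852 and 225 FPKM. LPS brought Irf7 to 1417 FPKM in ΔM and 964 FPKM in WT cells, so the untreated ΔM level was 88.4% of the WT level at 3 h and its response was 0.73 against 2.10. Ifit1, which binds foreign RNA ends, was at 28.1 against 8.22 FPKM before and at 988 against 698 FPKM after LPS. The p200 genes Gm4955 and Pydc4 were at 35.3 and 16.5 FPKM in untreated ΔM cells against 5.36 and 2.50 FPKM in WT. These p200 genes have close copies side by side on chromosome 1, and their reads may be split among them. Ifnb1 itself was at 0.04 FPKM in both genotypes before LPS.

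**Figure D3:**
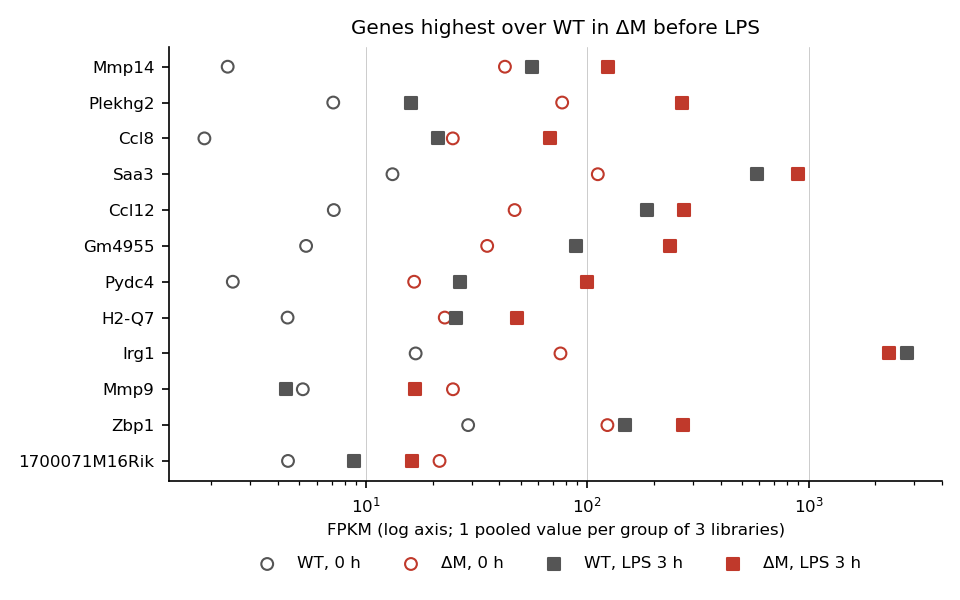
FPKM (x axis, log scale, 1 pooled value per group of 3 libraries) of the 12 genes that stood highest over WT in untreated ΔM BMDMs, among those of at least 5 FPKM there. Open circles are 0 h and filled squares 3 h of LPS, grey is WT and red ΔM. For Ccl8 the untreated ΔM value (24.7) lies right of the WT value at 3 h (21.1), whereas for Irg1 it lies far left of it (75.6 against 2782).

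The promoters of the raised genes differed in sequence from those of all included genes. RefSeq windows of 300 bases, from 250 before to 50 after the start (GRCm38.p6), could be matched for 8441 of the 11680 genes and 87 of the 107 raised genes. An interferon-stimulated response element, searched on both strands as GAAANNGAAA, was in 28 of 97 windows of the raised genes (28.9%), against 365 of 10776 windows (3.39%) of all. A κB site, searched on both strands as GGGANNTTCC, was in 9 of these 97 windows (9.28%) against 1.51% of all. GAS, searched as TTCNNNGAA, which reads the same on the other strand, was in 7.22% against 6.97%. A letter match is not a bound site, copies of one gene family share such sites, and matches of one motif can overlap. Ifit1 and Cxcl10 are shown as raised genes that LPS then induced strongly, with matches of either motif in capitals.
Ifit1, chr19:34640639-34640938, plus strand: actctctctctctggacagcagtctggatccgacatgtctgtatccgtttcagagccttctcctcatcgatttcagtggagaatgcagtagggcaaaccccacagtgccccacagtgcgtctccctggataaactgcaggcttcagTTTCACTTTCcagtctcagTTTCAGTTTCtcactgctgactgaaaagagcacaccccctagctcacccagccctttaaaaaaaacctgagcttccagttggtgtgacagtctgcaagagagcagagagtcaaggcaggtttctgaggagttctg
Cxcl10, chr5:92348840-92349139, minus strand: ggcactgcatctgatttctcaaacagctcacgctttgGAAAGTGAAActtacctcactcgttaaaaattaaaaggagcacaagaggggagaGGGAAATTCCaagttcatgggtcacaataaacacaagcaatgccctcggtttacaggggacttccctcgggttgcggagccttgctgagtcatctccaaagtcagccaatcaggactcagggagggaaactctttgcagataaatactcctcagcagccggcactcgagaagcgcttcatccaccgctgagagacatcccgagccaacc
In Ifit1 the capitals are ISRE matches at -104 to -95 and -85 to -76 from the start, both read on the other strand. Cxcl10 has an ISRE match at -213 to -204 and a κB match at -159 to -150. It was at 66.8 FPKM in untreated ΔM and 27.7 FPKM in untreated WT cells, and at 10915 and 11244 FPKM at 3 h.

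Other raised genes stood outside the lists of interferon-stimulated genes used here, which does not show that interferon leaves them unchanged. Irg1 (Acod1), which makes itaconate from cis-aconitate, was at 75.6 FPKM in untreated ΔM and 16.8 FPKM in untreated WT cells. H2-Q7, a nonclassical class I molecule, was at 22.7 against 4.42 FPKM, but its paralogues in the H2-Q cluster (H2-Q6, 16.2 against 3.91 FPKM) may share its reads. Of 17 chemotaxis receptors 4 were raised, beside 0.916% of all genes. They were the chemerin receptor Cmklr1 (47.4 against 14.8 FPKM), Gpr84 (74.3 against 23.3 FPKM), and the formyl peptide receptors Fpr1 and Fpr2. The liver X receptor Nr1h3 was at 25.5 against 5.92 FPKM, and 1700071M16Rik, a transcript with no assigned role here, at 21.5 against 4.44 FPKM. S100a8 and S100a9, of the neutrophil markers and chosen after their values were seen, also stood higher in untreated ΔM cells, at 14.3 against 6.84 and 18.4 against 8.34 FPKM. Of the other markers on that list, Ngp was at 1.84 against 1.97, Prtn3 at 0.66 against 1.13, Elane at 0.09 against 0.22 and Ly6g at 1.15 against 0.32 FPKM, and the part of such cells in the raised genes was not tested.

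How the raised genes went on with LPS varied. In ΔM cells 67 of the 107 were induced further, 32 stayed within 2-fold and 8 were reduced. Of the 76 that LPS induced in WT, untreated ΔM cells held a median of 31.7% of the WT level at 3 h, with a range from 0.594% for Cxcl10 to 481% for Plekhg2, and 6 of them stood at or above it. At 3 h, 38 of these 76 were still at least 1.5-fold higher in ΔM, 37 were within 1.5-fold of WT, and 1 (Cdc42ep2) was lower. Over all 107 raised genes the median excess over WT was 1.32 before LPS, 0.64 at 3 h and 0.26 at 6 h. The genes were chosen by the first of these values, so some fall from it would follow from the choice alone. The size of that part was not tested. Of the 31 that LPS did not induce in WT, 23 were still at least 1.5-fold higher at 3 h.

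The genes lowered before LPS were of another kind. Of 27 mitosis genes 25 were at least 2-fold lower in untreated ΔM cells, with a median of -1.45, and 2 of 26 replication genes, beside 1.07% of all genes. Mki67, a marker of cycling cells, was at 16.98 FPKM in ΔM and 57.1 FPKM in WT cells, Top2a, which untangles DNA, at 11.9 and 33.2 FPKM, and the kinase Plk1 at 11.3 and 32.4 FPKM. With LPS these mRNAs went different ways in ΔM cells, with Mki67 at 26.8, Top2a at 11.9 and Plk1 at 5.15 FPKM at 3 h. TTTGAA, the core of the cell cycle genes homology region, was in 54 of 116 promoter windows of the lowered genes (46.6%), against 12.1% of all windows, searched on both strands. Ube2c, which loads ubiquitin for the anaphase-promoting complex, is shown with its match, on the other strand, in capitals (54.1 against 167 FPKM before LPS).
Ube2c, chr2:164769679-164769978, plus strand: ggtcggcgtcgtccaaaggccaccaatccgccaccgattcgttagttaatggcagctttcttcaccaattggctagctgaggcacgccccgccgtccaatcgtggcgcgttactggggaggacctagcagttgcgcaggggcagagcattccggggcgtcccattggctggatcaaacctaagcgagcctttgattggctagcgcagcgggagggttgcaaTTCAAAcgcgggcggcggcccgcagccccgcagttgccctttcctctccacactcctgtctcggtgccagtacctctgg
The median of the lowered genes was -1.25 before LPS and -0.97 at 3 h, and 62 of the 125 were still at least 2-fold lower. These genes too were chosen by the first of these values, so some narrowing would follow from the choice alone.

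Genes induced more weakly in ΔM than in WT cells were defined as at least 2-fold higher in WT with a ΔM response smaller by at least 1.5-fold. There were 184 (1.58% of all genes), or 21.4% of those that LPS induced in WT, and Zfp36 is one of them as the deleted gene. Their median response was 1.63 in ΔM and 2.70 in WT cells, and 130 of them still passed 2-fold in ΔM. By construction a smaller response means a higher start, a lower end or both. In 112 of the 184 the start alone was raised by at least 1.5-fold, in 33 the end alone was lower by at least 1.5-fold, in 3 both held (Cdc42ep2, Icam1 and Ehd1, the last chosen after its values were seen) and in 36 neither. At 3 h the 112 genes with a raised start stood at a median of 0.13 over WT.

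**Figure D4:**
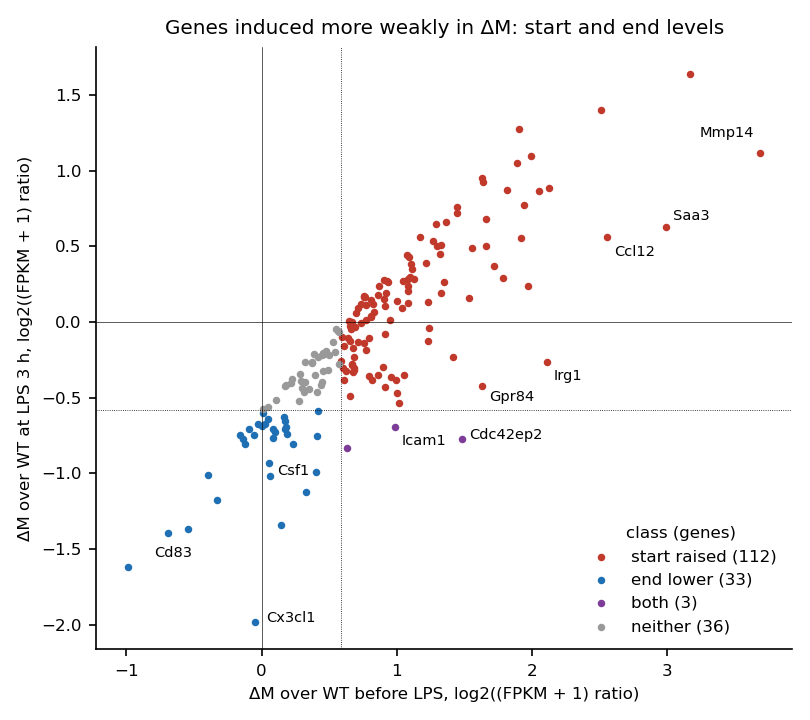
ΔM over WT before LPS (x axis) and after 3 h of LPS (y axis), both as log2 of the ratio of FPKM + 1, for 183 of the 184 genes induced more weakly in ΔM; Zfp36, at -4.09 and -5.88, is off the plot. Colours give the class by a limit of 1.5-fold (dotted lines). The red points (112 genes) have a raised start and Mmp14 is the farthest right, whereas Cx3cl1, at -0.05 and -1.98, is the lowest of the blue points (33 genes with a lower end, Zfp36 included).

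The weaker class held 20 of the 38 antiviral genes, 9 of 14 NF-κB subunits and inhibitors, 8 of 20 chemokines and 5 of 16 cytokines. These counts are to be read beside 1.58% of all genes and 21.4% of the genes induced in WT. Only genes induced in WT could be called, in that order 32, 13, 16 and 13 genes of these lists. Mmp14, Irg1, Saa3, Cdc42ep2, Gpr84, Ccl12, Cx3cl1, Oasl1, Icam1, Ccl5 and Nfkbie had the largest differences beside Zfp36. Irg1 reached 2314 FPKM in ΔM and 2782 FPKM in WT cells, but from unequal starts, so its response was 4.92 against 7.29. Oasl1, which restrains Irf7 translation in mice, went from 72.5 to 1454 FPKM in ΔM and from 17.7 to 1233 FPKM in WT cells (4.31 against 6.04). Ccl5 went from 38.6 to 5255 FPKM and from 13.8 to 6175 FPKM (7.05 against 8.70). For Irg1, Oasl1 and Ccl5 the ΔM level at 3 h lay within 1.5-fold of WT.

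Within the NF-κB list starts were higher in some genes and ends lower in others. Nfkbia, whose protein IκBα holds NF-κB in the cytoplasm, was at 68.8 FPKM in untreated ΔM and 39.2 FPKM in untreated WT cells, and at 435 and 468 FPKM at 3 h. Nfkbie was at 31.7 against 15.2 FPKM before and at 80.1 against 117 FPKM after LPS. Bcl3, a nuclear IκB protein, went to 549 against 772 FPKM, and Rela, the p65 subunit, from 82.1 to 119 FPKM in ΔM and from 79.2 to 177 FPKM in WT cells. Of the 14 genes 13 had a smaller response in ΔM, beside 67.6% of the 858 genes induced in WT and 45.3% of all genes. The list's median was 0.39 over WT before LPS and -0.30 at 3 h.

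Lower end levels from an equal start were seen for Cx3cl1, the membrane-anchored chemokine of the receptor CX3CR1, which reached 6.83 FPKM in ΔM against 29.9 FPKM in WT cells from 1.35 and 1.43 FPKM. Csf1, the macrophage growth factor, reached 116 against 222 FPKM from 5.37 and 5.13 FPKM. Icam1, the leukocyte adhesion molecule, started higher (65.9 against 32.8 FPKM) and ended lower (644 against 1041 FPKM). Cdc42ep2, an effector of CDC42, did likewise, from 17.7 against 5.69 FPKM to 46.2 against 79.8 FPKM. For these genes the groups changed places between 0 and 3 h or parted from a common start.

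Induction in WT cells alone, at least 2-fold in WT with a ΔM response under 0.5, was rare, with 20 genes (0.171%), of which 15 reached 5 FPKM in 1 of the 4 groups. The highest WT response among them was 1.69, for Vasp, an actin regulator: it went from 69.9 to 228 FPKM in WT and from 124 to 175 FPKM in ΔM cells. In 18 of the 20 the untreated ΔM level was above the WT level, beside a median of -0.04 for ΔM over WT across all genes. The untreated ΔM level enters the call, and a higher start favours it, so this count follows in part from the choice. Clec4a1, a C-type lectin, was at 106 against 41.5 FPKM before LPS and at 145 against 102 FPKM after it. Errfi1, an inhibitor of EGF receptors, started level in both genotypes: it stayed at 6.01 and 5.85 FPKM in ΔM and went from 5.73 to 12.9 FPKM in WT cells. Lrrc25, Rgl1, Tmem176b, Itga5, Igf2bp2, Tspo, Pilra, Akna and Mocs1 had differences between -0.66 and -0.95, and Clec4a1 one of -0.81.

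Stronger induction in ΔM, at least 2-fold with a response at least 1.5-fold larger than in WT, held for 65 genes (0.557%). Fewer than 50% of these calls held under some alternatives: 15 of 65 with a pseudocount of 5 FPKM, and 23 of the 52 with a GC value after the centring for base composition given further on. Ifnb1 differed most. It went from 0.04 FPKM in both genotypes to 186 FPKM in ΔM and 26.5 FPKM in WT cells, a response of 7.49 against 4.72, and stood at 13.1 against 0.75 FPKM at 6 h. Cxcl1 reached 1589 against 629 FPKM and Cxcl2, another neutrophil chemokine, 5658 against 1564 FPKM. At 6 h Cxcl1 was at 444 FPKM in ΔM and 24.3 FPKM in WT cells and Cxcl2 at 3428 and 179 FPKM. Cxcl3, beside them in the genome and chosen after its values were seen, behaved otherwise: it reached 352 FPKM in ΔM and 385 FPKM in WT cells at 3 h, from 14.6 and 5.62 FPKM. Serpinb2, an inhibitor of plasminogen activators, reached 11.7 against 2.78 FPKM, and the interferon-inducible GTPase Iigp1 25.7 against 9.31 FPKM. Gm28289 and Plekhf1 had differences in response of 0.94 and 1.28. In 35 of the 65 the ΔM level at 3 h was at least 1.5-fold over WT, and in 6 the ΔM level before LPS was at least 1.5-fold under WT. Tnf and Il10, also TTP targets, had smaller differences in response. Tnf reached 4880 against 3322 FPKM (6.22 against 5.80), and Il10 171 against 71.8 FPKM (4.90 against 4.42). Il1b, a TTP target named in the paper and chosen here after its values were seen, was in the weaker class (difference -0.71). It went from 6.64 to 150 FPKM in ΔM and from 3.31 to 138 FPKM in WT cells.

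The promoter windows of Ifnb1, Cxcl1 and Cxcl2 are shown because these mRNAs led the stronger class, with κB matches in capitals. None of the 3 windows held an ISRE match by the letters searched.
Ifnb1, chr4:88522745-88523044, minus strand: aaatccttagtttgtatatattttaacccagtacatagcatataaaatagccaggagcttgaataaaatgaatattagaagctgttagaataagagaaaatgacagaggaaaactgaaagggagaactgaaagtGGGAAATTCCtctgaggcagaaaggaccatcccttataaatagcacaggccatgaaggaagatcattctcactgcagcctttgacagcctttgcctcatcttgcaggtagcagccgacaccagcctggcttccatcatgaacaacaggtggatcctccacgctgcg
Cxcl1, chr5:90890995-90891294, plus strand: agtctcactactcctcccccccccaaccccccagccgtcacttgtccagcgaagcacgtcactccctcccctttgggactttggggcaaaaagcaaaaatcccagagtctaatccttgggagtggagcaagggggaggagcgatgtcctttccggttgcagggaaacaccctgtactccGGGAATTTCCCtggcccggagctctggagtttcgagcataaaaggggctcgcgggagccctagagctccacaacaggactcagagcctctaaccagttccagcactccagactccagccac
Cxcl2, chr5:90903649-90903948, plus strand: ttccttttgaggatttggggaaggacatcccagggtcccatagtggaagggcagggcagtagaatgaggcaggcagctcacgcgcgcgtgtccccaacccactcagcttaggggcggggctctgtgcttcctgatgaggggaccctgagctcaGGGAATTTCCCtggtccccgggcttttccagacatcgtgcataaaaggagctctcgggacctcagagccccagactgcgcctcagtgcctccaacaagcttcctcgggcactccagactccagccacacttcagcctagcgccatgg
In the Cxcl1 and Cxcl2 windows the capitals are overlapping matches on either strand. Among 54 windows of the stronger genes 5 held a κB match (9.26%), the 3 shown here included, and 3 an ISRE match (5.56%). For the weaker genes the shares were 6.59% and 13.7% of 182 windows. They were 1.51% and 3.39% of all windows and 2.97% and 9.85% of windows of the induced genes. The counts for the stronger genes are small, and the difference between the classes was not tested.

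TTP crosslink sites mapped by the study in BMDMs after 3 h of LPS give the 3′ UTR stretches of some of these mRNAs. Only sites that hold the heptamer TATTTAT, written as DNA and in capitals, were taken, so its presence was fixed by that choice. The longest such site of a gene was used and cut to at most 30 bases. The whole Cxcl2 site holds 5 copies, more than its stretch shows. Coordinates are mm9, where each stretch was found in the genome as listed.
Cxcl1, chr5:91321924-91321953, plus strand: tgtcttgaaaagaatgtcagtTATTTATtg
Cxcl2, chr5:91334347-91334376, plus strand: ttcactTATTTATTTATctatgTATTTATt
Il10, chr1:132920952-132920981, plus strand: cgtttgtacctctctccgaaaTATTTATta
Nfkbia, chr12:56590417-56590446, minus strand: tattttggtacttctaagatgtaTATTTAT
Icam1, chr9:20832760-20832782, plus strand: ttcttgatgTATTTATtaattta
Cxcl1, Cxcl2 and Il10 were higher in ΔM cells at 3 h, Nfkbia differed by -0.11, and Icam1 was lower, so mRNAs with such a site lay on either side of WT.

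Decay after actinomycin D, from the study's fits over 45 and 90 min at 3 h of LPS, was read beside these classes. The fits start from the same 3 h libraries, so the levels and slopes share values. Half-lives were computed from their slopes, and one under 180 min was found for 22.6% of mRNAs in ΔM and 20.8% in WT cells, of 10591 with a slope in both genotypes and at least 1 FPKM in ΔM cells at 3 h. Of the 61 stronger genes with a fit, 29 were below that limit in ΔM and 23 in WT; of 181 weaker genes 42 and 57; and of 101 raised genes 16 and 10. Cxcl1 had a half-life of 109 min in WT and was listed as stable (180 min or longer) in ΔM, and Tnf was at 38.5 min and stable. Il10 was at 135 min and stable. Ifnb1 went the other way, stable in WT and 117 min in ΔM, although its WT level was low. Nfkbia was short-lived in both, at 17 and 18.7 min. The median slope difference over 90 min, ΔM minus WT, was -0.42 for stronger, 0.17 for weaker and -0.24 for raised genes, beside -0.05 over all.

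Induction in ΔM cells alone, at least 2-fold in ΔM with a WT response under 0.5, held for 24 genes (0.205%), and 14 of them reached 5 FPKM in 1 of the 4 groups. Their highest response was 1.89, and 23 of the 24 had a WT response above 0. Csf3, the neutrophil growth factor G-CSF, went from 0.22 to 3.51 FPKM in ΔM and from 0.08 to 0.50 FPKM in WT cells. Hspa4l, a relative of Hsp70 chaperones, went from 4.42 to 10.5 FPKM and, in WT, from 7.54 to 6.20 FPKM. Cdkn2d, an inhibitor of CDK4, went from 10.95 to 25.1 FPKM, to a level below that of WT cells (29.4 FPKM), which had started at 28.8 FPKM. Tpr, of the nuclear pore basket, went from 67.0 to 144 FPKM and in WT from 77.1 to 96.6 FPKM. Gm37376, Pdcd10, Tmem68, 2900089D17Rik, Rbbp8, Zbtb8a, Lrrc8c, Gm26750 and Atp11a had responses of 1.08 to 1.66. Ifna4 and Ifna5, interferon α genes chosen after their values were seen, were listed at 0 in both genotypes before LPS and reached 2.67 and 1.45 FPKM in ΔM against 0.05 and 0.30 FPKM in WT cells. Interferon α genes are near-identical, so reads may be split among them.

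The difference between the responses moved with the base composition of the transcripts. Over the 10221 genes with a value, Spearman's rank correlation with GC content, across genes that share the same libraries, was -0.43 for the difference in response and -0.30 and -0.11 for the ΔM and WT responses, but 0.04 for the difference before LPS. In the bin of lowest GC, 39.1%, the median response was 0.04 in ΔM and -0.20 in WT cells, and in the bin of highest GC, 61.0%, it was -0.59 and -0.42. The stronger genes had a median GC of 45.5%, the weaker ones 53.1% and all genes 50.2%. Centring each genotype within 20 GC bins, an alternative chosen after seeing the data, left 99 of the 100 raised genes with a GC value raised, 145 of 175 weaker genes weaker and 23 of 52 stronger genes stronger. Ifnb1, Cxcl1 and Cxcl2 kept differences of 2.60, 0.97 and 0.78. Of the genes induced in ΔM alone only 17 of 24 had a GC value, fewer than the 80% set for such a check, so for the whole class it is void. Of those 17, 4 stayed, and Hspa4l, Pdcd10, Tmem68 and Tpr left it with centred ΔM responses of 0.67, 0.71, 0.75 and 0.93. Of those induced in WT alone, 9 of 19 stayed. The decay slopes moved with GC too (rank correlation 0.56 for ΔM minus WT), and after centring the median slope differences were -0.15 for stronger, 0.07 for weaker and -0.10 for raised genes. The part of GC content in these classes was not tested.

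**Figure D5:**
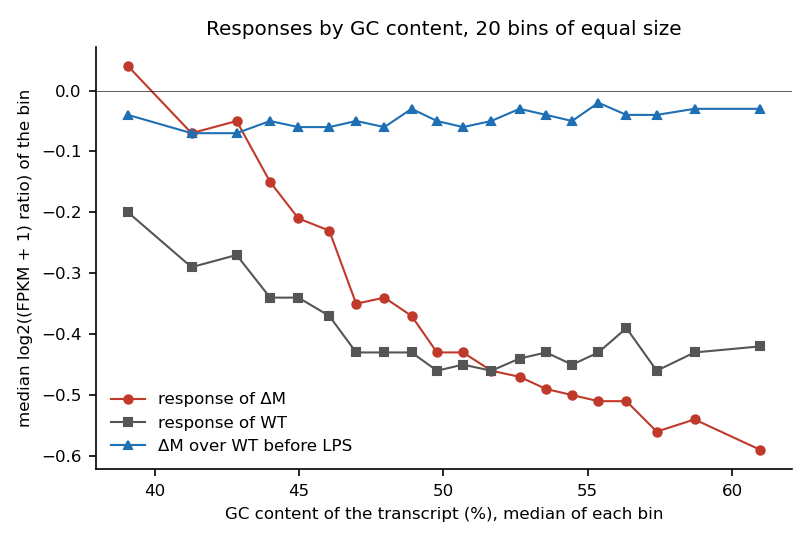
Median response to 3 h of LPS in ΔM (red circles) and WT (grey squares) BMDMs, and median of ΔM over WT before LPS (blue triangles), as log2 of the ratio of FPKM + 1 (y axis), in 20 bins of equal size by GC content of the transcript in percent (x axis). From the lowest to the highest bin the ΔM median goes from 0.04 to -0.59 and the WT median from -0.20 to -0.42, while the blue points stay between -0.07 and -0.02.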

How the data were processed

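Poly(A) RNA of WT and ΔM BMDMs was sequenced by the authors as single-end reads (SENSE mRNA-Seq kit). Per the labels and the study's methods they aligned reads to mm10 with GSNAP, estimated FPKM per gene with Mix², and ran DESeq2 for differential expression. The deposited FPKM values are 1 pooled value per group, and how 3 libraries were pooled is not given in the sources used here. The decay rates, other values the authors deposited, are slopes of log2 FPKM per min after actinomycin D, and half-lives were computed here as the negative inverse of the slope. Columns of the authors' own log2 fold changes and FDRs between genotypes were not used. Depth per library is unknown, so precision cannot be given.

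From these values log2 ratios were computed with a pseudocount of 1 FPKM (numpy 2.4.6 and pandas 2.3.3 under Python 3.11.15, figures with matplotlib 3.10.9) over genes of at least 1 FPKM in ΔM at 0 or 3 h. The 166 genes just inside this limit (1 to 1.1 FPKM) had a median response of -0.21, ranging from -1.06 to 1.03, and the 184 just outside (0.9 to 1 FPKM) a median of -0.21, ranging from -0.99 to 0.90. Induced, reduced, raised and lowered mean 2-fold, differences between responses 1.5-fold, and induced in 1 genotype alone a response under 0.5 in the other. The code that calls the classes returned the responses planted in simulated data without measurement noise, which does not show how reliable the calls are. Named genes are Zfp36, Plekhg2, the 12 most extreme genes of each class above 5 or 10 FPKM, and per list the 3 highest, 3 lowest and 3 most different responses and the 2 highest levels. Members, rules and lists were chosen with earlier results of these data known, and the lists came from general knowledge. Promoters and positions come from RefSeq (GRCm38.p6, the build of mm10), matched by symbol, GC content from GENCODE protein-coding transcripts by gene identifier. Of the study's table of crosslink sites only sequences and positions were used. Some results are not reported here. Alternatives were other pseudocounts, filters, limits, a median-ratio scaling, GC centring and leaving out 34 rows that share a symbol.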

Additional observations from a re-analysis of the deposited data

Results flagged for a closer look

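The responses of WT and ΔM cells went in opposite directions, by at least 1.5-fold each, for 2 of the 11680 genes. Slamf8, a receptor of the SLAM family on myeloid cells, had a response of -0.60 in ΔM (17.1 to 10.98 FPKM) and 0.76 in WT cells (3.59 to 6.75 FPKM), and it was raised before LPS. The gene listed as ENSMUSG00000082697 had a response of 0.60 in ΔM (16.6 to 25.7 FPKM) and -1.31 in WT cells (39.2 to 15.3 FPKM). These differences between responses were not tested here.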

How the results depend on the processing

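No paired analysis was possible because the tables hold 1 pooled value per group and no result comes from a test, and for the same reason no library could be left out. The pseudocount moved most counts. With 0.1 FPKM, 2142 genes were reduced, 216 raised and 214 lowered before LPS, 277 weaker, 132 stronger and 40 induced in ΔM alone; with 5 FPKM these counts were 503, 56, 47, 110, 17 and 5, with 6 induced in WT alone. A limit of 5 FPKM left 72 lowered genes and 14 induced in ΔM alone. Median-ratio scaling gave 761 reduced and 98 stronger genes. At 3-fold 469 genes were induced and 380 reduced. At 1.5-fold 383 were raised and 529 lowered. With a margin of 2-fold 48 were weaker and 10 stronger. Allowing responses under 1 with a margin of 1.5-fold gave 38 genes for ΔM alone and 54 for WT alone. After GC centring 31 were stronger, 7 induced in ΔM alone and 13 in WT alone. Of the 24 genes induced in ΔM alone, 10 remained with the pseudocount of 0.1 and 10 with scaling, and of the 20 induced in WT alone 3 remained with scaling. Of the differences in response of the 238 named genes, GC centring turned the sign of 10 of the 232 with a value, the pseudocount of 5 FPKM of 13, that of 0.1 FPKM of 6 and scaling of 2. One of them had reached 1.5-fold: for Ifi205 the difference went from -0.84 to 0.26 with a pseudocount of 5 FPKM. Its levels before LPS, 3.96 FPKM in ΔM and 0.34 FPKM in WT cells, were under that pseudocount, so adding it narrowed their ratio. No filter, or leaving out shared symbols, moved no count by over 1.5-fold. What the depth limits cannot be said from pooled values.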
